A study of Mus musculus with 18 samples.

Results

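Dyrk1a, Rcan1 and 7 other genes of the calcineurin-NFAT axis (Rcan2, Ppp3ca, Ppp3cb, Ppp3r1, Nfatc1, Nfatc2 and Nfatc3) were followed in the livers of 18 adult mice by sequencing of polyadenylated RNA. These 9 genes are the rows that carry those symbols among the 55385 genes of the deposited tables, with 1 row for each symbol. The wild-type group held 6 C57BL/6J mice, the second group 6 Dp16 mice and the third 6 Dp16-2xIFNRs mice, each with 3 males and 3 females and no treatment. Wild-type and Dp16 mice were 17.1 to 18.0 weeks old and Dp16-2xIFNRs mice 17.7 to 18.0 weeks. Dp16 mice carry an extra copy of a segment of chromosome 16 that matches a large part of human chromosome 21, and trisomy 21 is studied with them. In Dp16-2xIFNRs mice the interferon receptor genes inside that segment are set back to the wild-type dosage. Dyrk1a and Rcan1 lie in the segment, outside the receptor cluster, so both carrier groups hold 3 copies of each and the wild-type mice 2. The extra copy is carried in every cell of the animal, and the labels do not say whether carriers and wild-type mice were littermates. They also do not describe how samples within a group are related, so p-values measure the spread between these livers.

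Calcineurin is a phosphatase that calcium and calmodulin switch on. It removes phosphates from the NFAT transcription factors, which then enter the nucleus and act on target genes. DYRK1A is a kinase that phosphorylates NFAT and favors its return to the cytoplasm, and RCAN1 binds calcineurin and inhibits it. The genes for both brakes lie on human chromosome 21, which is why the pair is studied together in trisomy 21. In liver, Rcan1 is known as a gene that stress and calcium signals can induce, and hepatocytes make up most of the tissue.

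Dyrk1a (ENSMUSG00000022897.15) spans chr16:94570010-94695517 on the plus strand of GRCm38, and Rcan1 (ENSMUSG00000022951.16) spans chr16:92391953-92470867 on the minus strand. The other 7 genes lie on other chromosomes (Rcan2 on 17, Ppp3ca on 3, Ppp3cb on 14, Ppp3r1 on 11, Nfatc1 on 18, Nfatc2 on 2 and Nfatc3 on 8) and have the usual 2 copies in all groups. Rcan1 is known to be read from alternative starts, of which an internal one is the textbook NFAT target. The 250 bases upstream of 2 of its RefSeq starts (GRCm38.p6, minus strand) are shown because a gene count cannot separate transcripts from the different starts. Capitals mark GGAAA, the NFAT core, TGACGTCA, the cyclic AMP response element, and TGACTCA, an AP-1 element, each on either strand.
Rcan1 outer start, chr16:92466170-92466419: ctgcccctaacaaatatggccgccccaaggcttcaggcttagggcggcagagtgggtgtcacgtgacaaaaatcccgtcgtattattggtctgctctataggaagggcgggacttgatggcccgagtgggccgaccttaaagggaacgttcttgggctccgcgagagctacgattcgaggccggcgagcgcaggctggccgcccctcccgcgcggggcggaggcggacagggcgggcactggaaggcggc
Rcan1 inner start, chr16:92400079-92400328: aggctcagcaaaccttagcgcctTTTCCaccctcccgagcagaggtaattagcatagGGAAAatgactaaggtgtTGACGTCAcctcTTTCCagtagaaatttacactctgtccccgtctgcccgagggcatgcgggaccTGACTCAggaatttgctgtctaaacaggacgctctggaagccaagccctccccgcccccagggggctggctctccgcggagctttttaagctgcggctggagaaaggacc
The window of the inner start holds 3 copies of GGAAA, beginning 227, 193 and 163 bases before the start, with 1 TGACGTCA at 175 and 1 TGACTCA at 110. The window of the outer start holds none of the 3 motifs. Of 32851 mouse windows of this length, 55.6% hold GGAAA at least once, 6.39% hold it 3 times or more, 1.55% hold TGACGTCA and 4.46% hold TGACTCA. In GENCODE M21 neither window overlaps an exon. As intron, 4 Rcan1 transcripts run across the inner window and 1 across the outer window. A start farther upstream is thus annotated as well, and outer and inner name only the order of the 2 starts shown. A match describes letters only and says nothing of binding in these livers.

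Total counts per library ran from 38236222 to 59923315. Hepatocyte markers summed to between 79918 and 138579 CPM (counts scaled to the library total after TMM normalization), and T and NK cell markers to between 3.85 and 12.4. Skeletal muscle markers summed to at most 10.4, in wild-type library 5, and to 0 in every Dp16 and Dp16-2xIFNRs library. The libraries differed in how well long transcripts were represented. A measure of this used log2 levels, with each gene taken relative to its mean over the 18 libraries. It was the median of 2082 long genes (at least 5430 bases) less that of 2083 short genes (at most 1773 bases). A value below 0 thus means that long genes stood lower, relative to short ones, than in the average library. The measure ran from -1.30 in Dp16 library 4 to 1.502 in Dp16 library 5. It was -0.77 to 0.80 in wild-type and -0.71 to -0.17 in Dp16-2xIFNRs livers. It is called the long-gene measure, and Dp16 libraries 4 and 5 stand apart at its ends. The labels give no RNA quality value, and what sets the measure was not tested.

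All 9 genes passed the filter on low counts, and their levels per transcript length (RPKM, the authors' values) spanned a wide range. Ppp3r1, the regulatory subunit of calcineurin, stood highest at 12.1 ± 1.54 RPKM over all libraries (SD, n = 18). Rcan1 followed at 10.2 ± 2.87, within the combined spread of Ppp3r1. The catalytic subunits Ppp3ca and Ppp3cb measured 5.96 ± 1.68 and 4.44 ± 0.508. Dyrk1a, Rcan2 and Nfatc3 came next at 3.60 ± 1.49, 3.45 ± 2.07 and 3.11 ± 1.16, with overlapping spreads. These SDs pool the genotypes and sexes, so they do not compare genes within a library. Dyrk1a and Nfatc3 are set against each other within each library below. Nfatc1 measured 1.16 ± 0.492 RPKM. Nfatc2, best known from lymphocytes, was close to absent at 0.0477 ± 0.0445 RPKM. The tissue is bulk liver, so fewer cells of a type and less RNA per cell cannot be told apart for any of these genes.

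**Figure D1:**
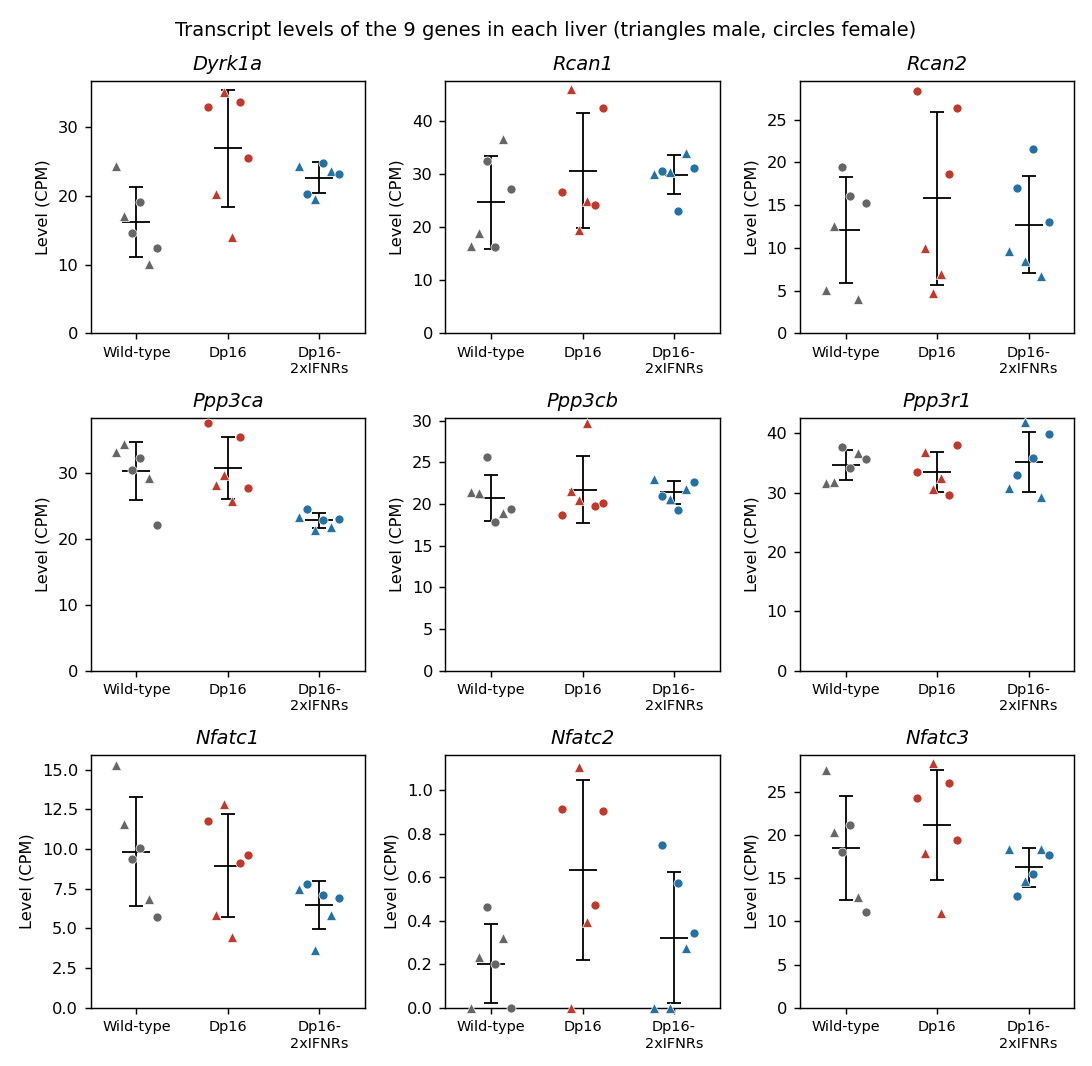
Level of each gene in CPM (vertical axes, from 0) in the 6 livers of each genotype; triangles are males, circles females, and bars give the mean and SD. Dyrk1a lies above the wild-type mean in 11 of 12 carriers with overlap, Ppp3ca is low in all 6 Dp16-2xIFNRs livers, Rcan2 separates by sex, and Nfatc2 stays at or below 1.11 CPM.

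The first comparison asks whether the extra copy of Dyrk1a is seen in its transcript. Dyrk1a stood higher in both carrier groups, by about the amount that 3 copies over 2 would give, but no genotype comparison called it over all genes. In wild-type livers it measured 10.1 CPM at the lowest, 15.8 at the median and 24.4 at the highest. In Dp16 livers these values were 14.1, 29.3 and 35.2 CPM, and in Dp16-2xIFNRs livers 19.5, 23.5 and 24.9. Above every wild-type liver lay 4 Dp16 livers and 2 Dp16-2xIFNRs livers, and the groups overlapped. Means were 16.3 ± 5.10, 27.0 ± 8.53 and 22.7 ± 2.23 CPM in the same order (SD, n = 6).

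Against wild-type, the log2 fold change of Dyrk1a was 0.72 in Dp16 (1.65-fold, SE 0.23, 95% interval 0.25 to 1.19), with an adjusted p of 0.552 in edgeR's quasi-likelihood test. In Dp16-2xIFNRs it was 0.47 (1.39-fold, SE 0.22, interval 0.01 to 0.94, adjusted p = 0.574, edgeR), and between the carrier groups it was -0.24 (interval -0.71 to 0.22). With the 12 carriers taken as 1 dosage group it was 0.60 (1.51-fold, SE 0.20, interval 0.18 to 1.01, adjusted p = 0.458, edgeR), and 11 of 12 carriers lay above the wild-type mean. A ratio of 3 copies to 2 is 0.58 on this scale, inside all 3 intervals against wild-type. Among the other 74 segment genes tested, whose median was 0.62 in Dp16 and 0.48 in Dp16-2xIFNRs, 21 stood above Dyrk1a and 53 below it in Dp16, and 38 above and 36 below in Dp16-2xIFNRs.

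None of the 9 genes was called in any genotype comparison by edgeR, DESeq2 or limma-voom at an adjusted p under 0.05. The edgeR test called few genes at all: 6 of 15208 in Dp16 against wild-type (0.0395%), 15 in Dp16-2xIFNRs against wild-type (0.0986%), 31 in carriers against wild-type (0.204%) and 0 between the carrier groups, where DESeq2 called 7. At an unadjusted p under 0.05, the members that passed were Dyrk1a in Dp16 (background 4.87% of genes), Dyrk1a, Ppp3ca and Nfatc1 in Dp16-2xIFNRs (8.66%), Ppp3ca between the carrier groups (9.32%) and Dyrk1a in carriers (6.18%). Single passes are to be read against these shares of all genes.

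**Figure D2:**
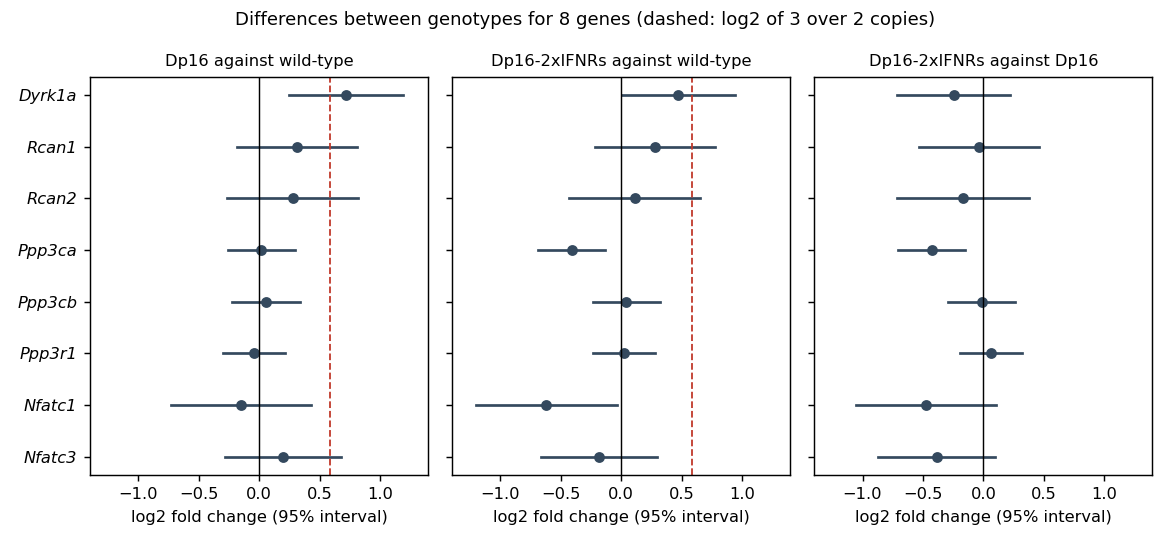
Log2 fold change (horizontal axes) with its 95% interval for 8 genes in 3 genotype comparisons from edgeR; Nfatc2, with intervals wider than 4 log2 units, is left out. The dashed line marks 0.58, the log2 ratio of 3 copies to 2; the Dyrk1a and Rcan1 intervals against wild-type include it, and the Rcan1 intervals also include 0.

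Much of the spread of Dyrk1a between animals went with the long-gene measure of the library. With genotype and sex removed, the correlation over the 18 libraries was r = 0.918 (Spearman 0.934, permutation p = 1e-05, the smallest that 100000 resamples can give, adjusted p = 4.5e-05 over 9 genes). The sample descriptions carry numbers from 2 series, whose meaning the labels do not give. Some full numbers recur in livers of different genotypes. Whether such livers are linked was not tested, and the tests treat the 18 livers as independent. The correlation was 0.922 in the 11 libraries of the first number series, 0.909 in the 7 of the second, and 0.870 without the 2 libraries farthest from the median. The Dyrk1a transcript is modeled at 6.28 kb, among the long ones. Dp16 library 4, with the lowest measure, gave the lowest Dp16 level of Dyrk1a (14.1 CPM), and Dp16 libraries 5, 1 and 3, with the highest measures of their group, gave 33.8, 33.0 and 35.2 CPM.

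A fit that removes each library's trend with gene length was therefore added after the data were seen, and under it Dyrk1a was called higher in both carrier groups. On this scale wild-type livers ran from 11.6 to 18.4 length-adjusted CPM, Dp16 livers from 20.9 to 26.5 and Dp16-2xIFNRs livers from 22.5 to 28.3. Every carrier liver lay above every wild-type liver, as held for 0.0921% of genes tested. The log2 fold change was 0.63 in Dp16 (SE 0.12, adjusted p = 0.0298, edgeR), 0.74 in Dp16-2xIFNRs (SE 0.12, adjusted p = 0.00716) and 0.68 in all carriers (SE 0.10, interval 0.47 to 0.90, adjusted p = 0.00333). The genes called were 0.158%, 0.329% and 0.513% of those tested in the same order. Among the 74 other segment genes, 15 were called in all carriers on this scale.

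When each library was left out in turn under this fit, the call of Dyrk1a in Dp16-2xIFNRs and in all carriers held in 18 of 18 fits. The call in Dp16 held in 11 of 18, and it was lost, with adjusted p values up to 0.102 (edgeR), without wild-type 2, 3, 4 or 5 or Dp16 1, 3 or 6. Between the carrier groups the difference was 0.10 (SE 0.12, interval -0.14 to 0.35), while on the unadjusted scale it was -0.24. The long-gene measure itself differed between these groups, with medians of 0.47 in Dp16 and -0.30 in Dp16-2xIFNRs.

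**Figure D3:**
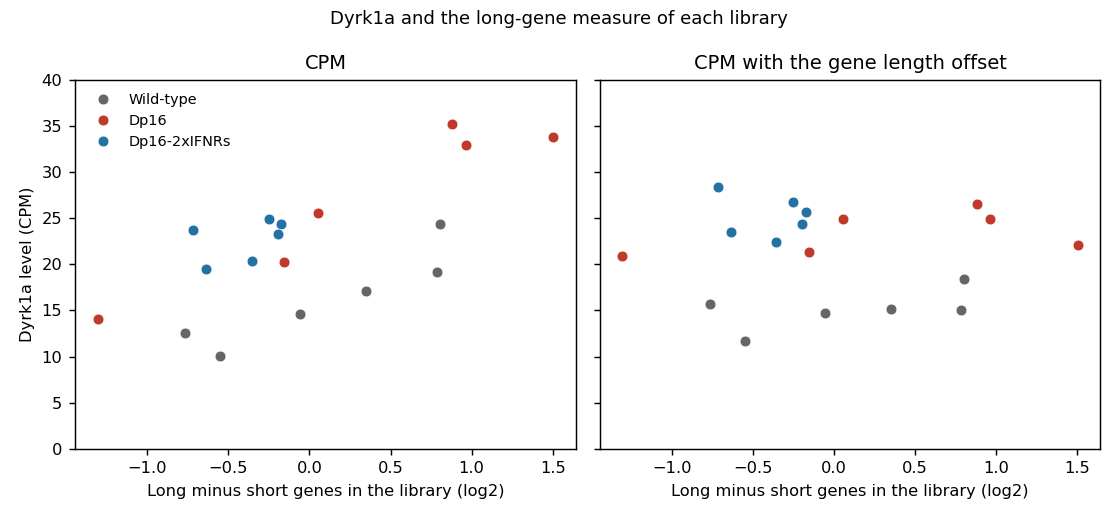
Dyrk1a level (vertical axes) against the long-gene measure of each library in log2 units (horizontal axes), as CPM on the left and as length-adjusted CPM on the right; each point is 1 liver, colored by genotype. On the left Dyrk1a is higher in wild-type and Dp16 libraries with a higher measure; on the right the wild-type livers (11.6 to 18.4) lie below all carriers (20.9 to 28.3).

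Without any fit, Dyrk1a was also set against Nfatc3 within each library, a pair chosen after the values were seen because both genes are modeled at like lengths (6.28 and 6.17 kb). In wild-type livers the RPKM ratio was 0.773 at the lowest, 0.846 at the median and 1.10 at the highest. The corresponding Dp16 values were 1.11, 1.26 and 1.33, and those of Dp16-2xIFNRs livers were 1.26, 1.30 and 1.58. All 12 carriers lay above all 6 wild-type livers, though the closest values, 1.10 and 1.11, nearly touched. A ratio to Nfatc3 that separates the groups in this way was found for 2 of 15207 genes (0.0132%). Nfatc3 follows Dyrk1a closely over these libraries and was picked with the values in view, so this share is a description and no support for the separation.

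Split by number series, Dyrk1a stood 0.46 log2 CPM above wild-type in the 7 carriers and 4 wild-type livers of the first number series. The difference was 0.99 in the 5 carriers and 2 wild-type livers of the second. By sex, its change in Dp16 was 0.45 in males and 0.99 in females, but the test of that difference did not pass (-0.56, SE 0.45, adjusted p = 0.615, edgeR interaction).

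Rcan1, the calcineurin inhibitor and the other segment member, did not show a like separation. Wild-type livers ran from 16.24 CPM through a median of 23.0 to 36.6, Dp16 livers from 19.5 through 25.7 to 45.9, and Dp16-2xIFNRs livers from 23.1 through 30.4 to 34.0. Dp16 libraries 2 (45.9) and 6 (42.3) lay above every wild-type liver, and the other 10 carriers fell inside the wild-type range. Means were 24.6 ± 8.72, 30.6 ± 10.8 and 29.8 ± 3.62 CPM (SD, n = 6).

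The log2 fold change of Rcan1 was 0.31 in Dp16 (SE 0.24, interval -0.19 to 0.81), 0.28 in Dp16-2xIFNRs (SE 0.24, interval -0.22 to 0.77) and -0.03 between them. In all carriers it was 0.29 (1.23-fold, SE 0.21, interval -0.14 to 0.73, adjusted p = 0.996, edgeR), with 9 of 12 carriers above the wild-type mean. The interval holds both no change and the 0.58 of an extra copy, so at this spread neither can be told from the other. Of the 74 other segment genes, 65 stood above Rcan1 in Dp16, 48 in Dp16-2xIFNRs and 64 in all carriers. Under the length offset the carrier value was 0.31 (SE 0.20) and 68 segment genes stood above it, and no fit with a library left out called it.

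Single libraries moved the Rcan1 values. In Dp16 it was 0.14 without Dp16 2 and 0.48 without wild-type 5, and in all carriers it was 0.20 without wild-type 1 and 0.46 without wild-type 5. Carriers less wild-type livers came to 0.52 log2 CPM in the first number series and -0.07 in the second. Its coefficient of variation was 12.1% among Dp16-2xIFNRs livers and 35.4% in both other groups, a difference that was not tested. It was not particular to Rcan1. In the order Dp16-2xIFNRs, wild-type, Dp16, Dyrk1a gave 9.83%, 31.3% and 31.6%, and Nfatc3 gave 13.8%, 32.4% and 30.1%. Ppp3r1 (14.4%, 7.33% and 10.1%) and Nfatc2 went the other way.

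Rcan2, a paralog of Rcan1 that also inhibits calcineurin and lies outside the segment, was set apart by sex. Male livers ran from 4.05 through a median of 6.95 to 12.6 CPM and female livers from 13.1 through 18.7 to 28.3. All 9 males lay below all 9 females. Such a separation toward females was found in 0.888% of genes. Rcan2 was lower in males by a log2 fold change of -1.34 (0.394 of the female level, SE 0.22, interval -1.80 to -0.89, adjusted p = 0.000349, edgeR), among the 3.16% of genes called lower in males. The call held under every alternative tried, with values from -1.54 to -1.13.

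Of the 9 genes, edgeR called Rcan2 alone between the sexes, where it called 6.56% of all genes. Among the pathway genes outside the 9, Rcan3, the remaining paralog, was also called lower in males (-1.20, SE 0.32, adjusted p = 0.0280, edgeR), a gene named after its value was seen. The sex difference of Rcan2 was present in each genotype: wild-type females held 15.3 to 19.4 CPM and males 4.05 to 12.6, and no interaction of sex with genotype was called for any of the 15208 genes. By genotype, Rcan2 stood at 0.28 (SE 0.26) in Dp16, 0.11 (SE 0.26) in Dp16-2xIFNRs and -0.17 (SE 0.26) between them. Rcan1 held 74.1% ± 11.0 of the summed RPKM of Rcan1, Rcan2 and Rcan3 over the 18 livers (SD).

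**Figure D4:**
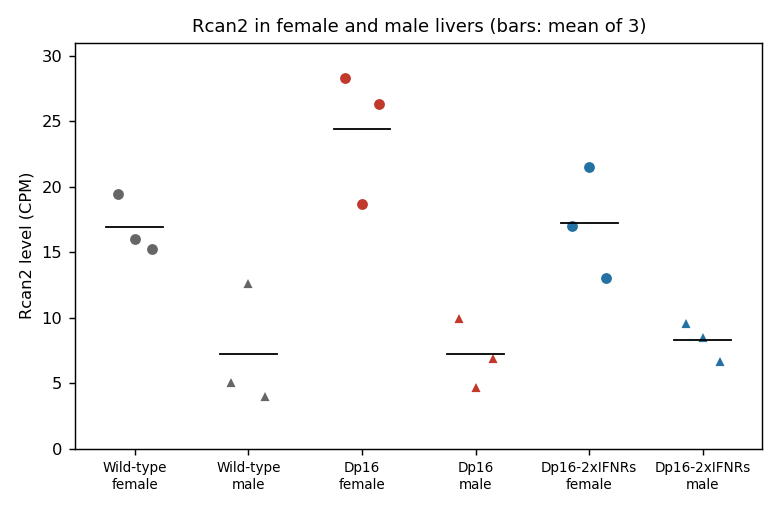
Rcan2 level in CPM (vertical axis) in the 3 female and 3 male livers of each genotype, with a bar at each mean. The highest male value is 12.6 and the lowest female value 13.1, and the order of the sexes is the same in the 3 genotypes.

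Ppp3ca, the gene of the alpha catalytic subunit and the main one in these livers by level, was low in Dp16-2xIFNRs livers. Wild-type livers ran from 22.1 through 31.5 to 34.5 CPM and Dp16 livers from 25.8 through 29.0 to 37.6. Dp16-2xIFNRs livers lay between 21.4 and 24.6, with a median of 23.0, below all 6 Dp16 livers and below 5 of 6 wild-type livers. In CPM, lower values without overlap between the carrier groups were found in 0.105% of genes. The log2 fold change was -0.41 against wild-type (0.752-fold, SE 0.13, adjusted p = 0.376, edgeR), -0.43 against Dp16 (0.743-fold, SE 0.13, adjusted p = 0.532) and 0.02 for Dp16 against wild-type. By unadjusted p, Ppp3ca ranked 71 of 15208 genes between the carrier groups.

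The Ppp3ca level also followed the long-gene measure (r = 0.808, Spearman 0.783, permutation p = 6e-05, adjusted p = 0.000158 over 9 genes; 0.583 in the first and 0.841 in the second number series; 0.820 without the 2 farthest libraries). With the length offset its differences shrank to -0.25 (SE 0.10) against wild-type and -0.24 (SE 0.10) against Dp16. On that scale the carrier groups overlapped, with Dp16-2xIFNRs livers at 23.4 to 26.7 and Dp16 livers at 24.96 to 33.9 length-adjusted CPM. They also overlapped in RPKM, at 4.12 to 4.94 and 4.32 to 9.94. The measure was below 0 in all 6 Dp16-2xIFNRs livers, and its part in the low Ppp3ca was not tested beyond this fit.

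Ppp3cb, the beta catalytic subunit, and Ppp3r1, the regulatory subunit B that both catalytic subunits need, varied little in CPM. Ppp3cb measured 20.8 ± 2.77, 21.7 ± 4.03 and 21.4 ± 1.397 CPM in the order wild-type, Dp16, Dp16-2xIFNRs (SD, n = 6), with log2 fold changes of 0.06 and 0.04 against wild-type and -0.01 between the carriers. Ppp3r1 measured 34.6 ± 2.54, 33.5 ± 3.39 and 35.1 ± 5.05 CPM, with changes of -0.04, 0.02 and 0.07. The 95% intervals of Ppp3cb and Ppp3r1 against wild-type all lay within -0.30 and 0.34, which leaves out a 1.5-fold change of either. With the length offset Ppp3cb spread more, from 14.96 to 39.08 length-adjusted CPM in Dp16 livers. Its interval in Dp16-2xIFNRs against wild-type then ran from -0.22 to 0.56, close to a 1.5-fold change.

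The makeup of the catalytic pool was taken from RPKM values within each library. Ppp3ca held 54.1% ± 6.07 of the summed RPKM of Ppp3ca, Ppp3cb and Ppp3cc in wild-type livers, 54.1% ± 6.70 for Dp16 and 46.4% ± 1.93 for Dp16-2xIFNRs livers (SD, n = 6). Ppp3cb held 37.0%, 38.2% and 43.5%, and Ppp3cc, known best from testis, the remaining 8.89%, 7.64% and 10.1%. The ratio of Rcan1 to this sum was 0.764 ± 0.286, 0.936 ± 0.367 and 1.05 ± 0.135. Dp16-2xIFNRs livers ran from 0.835 to 1.23 in that ratio and wild-type livers from 0.494 to 1.19, so the groups overlapped. The ratio of Ppp3r1 to the sum was 1.04 ± 0.123, 0.994 ± 0.143 and 1.20 ± 0.205.

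**Figure D5:**
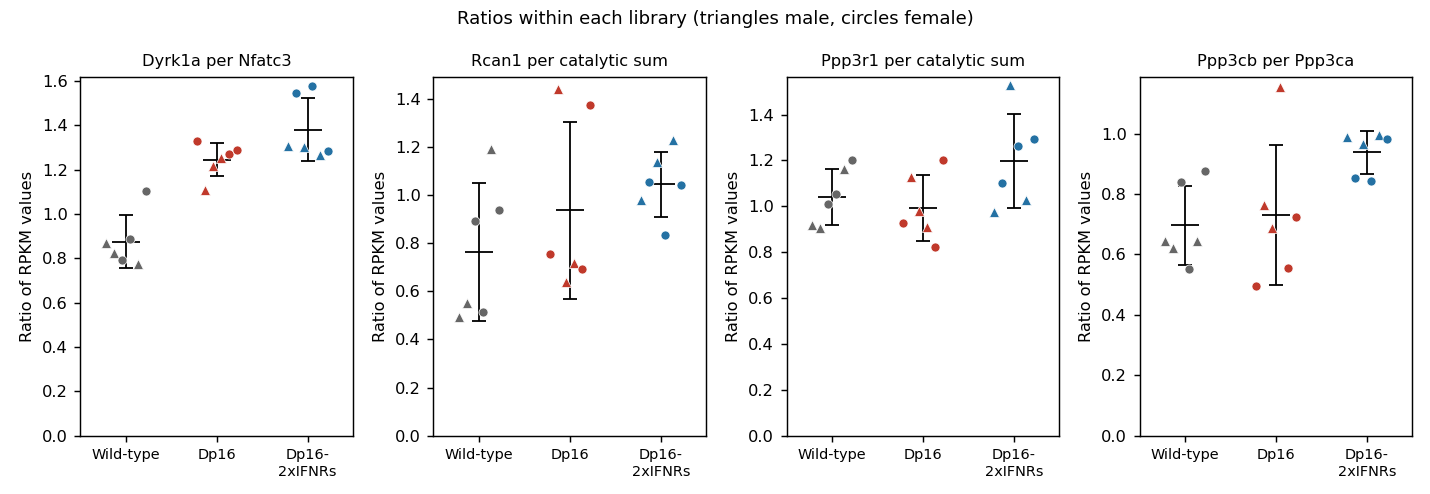
Ratios of RPKM values within each library (vertical axes, from 0) for Dyrk1a to Nfatc3, Rcan1 and Ppp3r1 to the sum of Ppp3ca, Ppp3cb and Ppp3cc, and Ppp3cb to Ppp3ca; triangles are males, circles females, and bars give the mean and SD of 6 livers. The ratio of Dyrk1a to Nfatc3 is the one in which the carriers (1.11 to 1.58) and wild-type livers (0.773 to 1.10) do not overlap.

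The NFAT factors, the substrates on which the kinase and the phosphatase act, were called in no comparison. Nfatc3, the most abundant of the 3, ran from 11.1 through 19.2 to 27.6 CPM in wild-type, from 11.0 through 21.9 to 28.4 in Dp16 and from 12.9 through 16.6 to 18.4 in Dp16-2xIFNRs livers. All 6 Dp16-2xIFNRs livers fell inside the range of both other groups. Its log2 fold changes were 0.20 (SE 0.23) in Dp16 and -0.19 (SE 0.23) in Dp16-2xIFNRs against wild-type, and -0.39 (SE 0.23) between the carriers, or -0.05 with the length offset.

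Nfatc1, which can raise its own transcription in lymphocytes and bone-resorbing cells, measured 9.83 ± 3.44, 8.95 ± 3.27 and 6.45 ± 1.53 CPM (SD, n = 6). Wild-type values ran from 5.74 to 15.3, and the highest Dp16-2xIFNRs liver reached 7.79, so that all 6 lay below the wild-type mean. Its change in Dp16-2xIFNRs was -0.62 against wild-type (SE 0.28, interval -1.20 to -0.04, adjusted p = 0.555, edgeR) and -0.47 against Dp16. With the length offset these were -0.31 (SE 0.18) and -0.07 (SE 0.18). The change in Dp16 was -0.15 (SE 0.28).

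Nfatc2 counts were too few for a statement on genotype. Libraries held 0 to 52 of its reads. It had 0 counts in 5 of them, namely wild-type 1 and 6, Dp16 2 and Dp16-2xIFNRs 1 and 3. The highest levels were 0.462 CPM among wild-type, 1.11 among Dp16 and 0.748 among Dp16-2xIFNRs livers. Log2 fold changes were 1.58 (SE 1.1), 0.32 (SE 1.2) and, between carriers, -1.26 (SE 1.1), each with an interval that held 0. T and NK cell markers, from cells known to express Nfatc2, summed to 3.85 to 11.1, 3.98 to 12.4 and 8.02 to 11.0 CPM in the 3 groups, with Nfatc2 itself not among them. Their part in its level was not tested.

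Between animals, with genotype and sex removed, the brakes of the axis were compared over the 18 libraries. The Pearson correlation of Rcan1 and Dyrk1a was r = -0.606 (permutation p = 0.00779, adjusted p = 0.0623 over 8 relations of Rcan1). The Spearman rho was -0.713 (adjusted permutation p = 0.0112). With 10030 genes ordered from the highest correlation with Dyrk1a down, Rcan1 ranked 7661, so many other genes ran against Dyrk1a more strongly. Ordered by correlation with Rcan1, Dyrk1a ranked 9287. The Pearson value was -0.781 in the first number series, -0.217 in the second and -0.504 without the 2 libraries farthest from the median of Rcan1. By Pearson correlation none of the 8 relations passed, and by Spearman correlation 5 did. Beside Dyrk1a these were Nfatc3 (rho -0.637), Nfatc1 (-0.548), Ppp3r1 (0.542) and Ppp3ca (-0.515), with adjusted permutation p values of 0.0222, 0.0441, 0.0441 and 0.0489. The permutations shuffle residuals without allowing for the genotype and sex terms already fitted, which makes the p-values somewhat too small. The passes of Nfatc1, Ppp3r1 and Ppp3ca, close to 0.05, are therefore not firm. Leaving out Dp16 4 took r to -0.864 (adjusted permutation p = 8e-05) with 3 of 8 relations passing, and leaving out Dp16-2xIFNRs 3 or 5 let 2 pass. On log2(RPKM + 0.1) values the relation was -0.314 (adjusted permutation p = 0.646).

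The long-gene measure ran against Rcan1 (r = -0.553, adjusted p = 0.0307 over 9 genes, Spearman -0.742; -0.826 in the first and -0.215 in the second number series; -0.543 without the 2 farthest libraries), whose transcript is modeled at 2.78 kb. It ran with Nfatc3 (r = 0.929, Spearman 0.907; 0.862 and 0.940 by series; 0.854 without the 2 farthest) and with Nfatc1 (r = 0.795, Spearman 0.709; 0.853 and 0.680 by series; 0.647 without the 2 farthest). Both have adjusted permutation p values below that of Rcan1, at 4.5e-05 and 0.000158. These p-values come from the same shuffling of residuals and are somewhat too small, so the Pearson pass of Rcan1 is not firm. The relations of Ppp3cb, Ppp3r1, Rcan2 and Nfatc2 with the measure did not pass. All genes of a library share its depth and this measure.

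Across the same libraries, Dyrk1a and Nfatc3 kept close step, with r = 0.961 after genotype and sex were removed (Spearman 0.977, permutation p = 1e-05, adjusted p = 7e-05 over 7 relations of Dyrk1a that were added after the data were seen). The value was 0.953 in the first number series, 0.958 in the second and 0.933 without the 2 farthest libraries. Dyrk1a with Nfatc1 gave 0.851 and with Ppp3ca 0.646 (adjusted permutation p = 7e-05 and 0.00926). Among 10030 genes, the 5 most like Dyrk1a over the 18 libraries were Zfhx2 (r = 0.972), Wdfy3 (0.970), Lrp5 (0.965), Numa1 (0.963) and Arhgap35 (0.962). These 5 are modeled at 6.01 to 14.9 kb. In the same order Nfatc3 ranked 8, Nfatc1 890 and Ppp3ca 2774, so many genes outside the axis followed Dyrk1a more closely than Nfatc1 and Ppp3ca did. The 5 most like Rcan1 were Coq10b (0.882), Lrrc28 (0.880), Akip1 (0.880), Gstm4 (0.863) and Nmrk1 (0.857), modeled at 1.03 to 4.26 kb.

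The other genes of the pathway were read from 9 lists, and in none of the 4 genotype comparisons was a gene of theirs called. Calmodulin and the remaining calcineurin subunits had 4 tested genes, all 4 above wild-type in Dp16-2xIFNRs with a median log2 fold change of 0.22, where all genes had a median of -0.02. Calm2 and Calm3, 2 of the calmodulin genes, stood at 0.32 (SE 0.19) and 0.12 (SE 0.11). Of 8 other calcineurin regulators, 5 were above and 3 below wild-type in that group, with Fkbp1a, the target of the drug tacrolimus, at 0.29 (SE 0.15) and Cib1, a calcium-binding protein, at 0.42 (SE 0.26).

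On the side of NFAT, 11 of 14 factors and partners were below wild-type in Dp16-2xIFNRs livers (median -0.26) and 7 of 14 in Dp16. Maf, a partner of NFAT on cytokine genes, stood at -0.37 (SE 0.17), and Nfatc2ip at -0.41 (SE 0.32). The kinases that act on NFAT beside DYRK1A were below wild-type in 11 of 13 cases (median -0.29) in Dp16-2xIFNRs and in 7 of 13 in Dp16, with Mapk8, the kinase JNK1, at -0.35 (SE 0.16) and Prkacb, a catalytic subunit of protein kinase A, at -0.37 (SE 0.18). Store-operated calcium genes were below in 8 of 13 cases in Dp16-2xIFNRs (median -0.17) and above in 8 of 13 in Dp16 (median 0.04). In Dp16-2xIFNRs the values named were -0.32 (SE 0.16) for Stim2, a calcium sensor of the endoplasmic reticulum, and -0.74 (SE 0.33) for Plcg1, a phospholipase.

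Targets and substrates gave no call between genotypes either. By sex, 1 of the 10 calcineurin substrates tested, Ppp1r1b, was called higher in males (log2 1.05, SE 0.25, adjusted p = 0.0118, edgeR). Between the sexes 6.56% of all genes were called in either direction. Of 18 NFAT target genes, 8 were expressed enough to test, and 4 of the 8 lay above wild-type for Dp16, with 5 for Dp16-2xIFNRs. Vcam1, an adhesion molecule of endothelium, measured 13.7 ± 4.79 CPM in wild-type and 19.6 ± 6.43 in Dp16 (log2 0.54, SE 0.21, adjusted p = 0.811, edgeR), and Ctsk, a protease of bone-resorbing cells, stayed below 1 CPM on average in each group. Other calcineurin substrates were below wild-type in 8 of 10 cases in Dp16-2xIFNRs (median -0.36) and above it in 6 of 10 in Dp16 (median 0.11). In Dp16-2xIFNRs Tfeb, a regulator of lysosome genes, stood at -0.42 (SE 0.21) and Crtc2, a coactivator of fasting genes, at -0.29 (SE 0.20).

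Partners and substrates of DYRK1A were above wild-type in 12 of 17 cases in Dp16 (median 0.16) and below it in 14 of 17 in Dp16-2xIFNRs (median -0.32). Of the D-type cyclins, which drive entry into the cell cycle, Ccnd2 stood in Dp16-2xIFNRs at -0.42 (SE 0.17) and Ccnd3 at 0.28 (SE 0.15). Of the 17 genes, 2 were called lower in males, Spred1 and Ccnd1, beside 3.16% of all genes. None of these shares was tested as a set, and the long-gene measure, below 0 in every Dp16-2xIFNRs liver, stands beside them; its part in them was not tested.

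The last list was drawn up for fasting and glucocorticoid responses, and it had the largest median in Dp16 among the 9 pathway lists. There 12 of 14 genes stood above wild-type (median 0.59 beside 0.01 over all genes). Of these, 6 had an unadjusted p under 0.05 (edgeR), which 4.87% of all genes passed in either direction. The list was chosen with earlier results of these data known, so these counts are a description and no support for a response. Igfbp1, a fasting-induced binding protein of insulin-like growth factors, measured 69.9 ± 28.0 CPM in wild-type livers, with 163 ± 37.6 for Dp16 and 199 ± 116 for Dp16-2xIFNRs (log2 1.23, SE 0.35, and 1.52, SE 0.35; adjusted p = 0.381 and 0.117, edgeR). Cdkn1a, a cell cycle inhibitor that stress induces, measured 6.99 ± 4.80, 26.6 ± 15.3 and 16.7 ± 11.6 CPM (log2 2.03, SE 0.51, and 1.25, SE 0.48). In Dp16-2xIFNRs 7 of the 14 stood above wild-type, with a median of 0.02. By sex, 2 of the 14, Fkbp5 and Ppargc1a, were called lower in males, beside 3.16% of all genes.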

How the data were processed

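Polyadenylated RNA of 18 livers was sequenced from strand-specific libraries as paired reads, per the labels' protocols. The authors deposited a table of read counts per gene and a table of RPKM values per gene. Per the submitters' processing notes, bcl2fastq, FastQC 0.11.5, HISAT2 2.1.0, SAMtools 1.5, HTSeq 0.6.1 and the build GRCm38 were used; the strand setting of the counting is not stated there. The RPKM values were deposited by the authors, and gene lengths were taken from their ratio to the counts.

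Groups, sex and age were taken from the labels. The 9 genes and all gene lists were chosen with earlier results of these data known. Counts were tested with edgeR 4.0.16 (R 4.3.3; quasi-likelihood, TMM, filterByExpr by group, 15208 of 55385 genes tested, terms for genotype and sex, Benjamini-Hochberg over all tested genes, threshold 0.05). DESeq2 1.42.0 and limma 3.58.1 were alternatives. A prior count of 2 was added before log2 CPM was taken, and RPKM alternatives pseudocounts of 0.1 and 1. The length offset subtracts a lowess trend (span 0.3) of each library against gene length. Relations used residuals with permutation tests of 100000 resamples, two-sided. The shuffling does not allow for the genotype and sex terms already fitted, so these p-values are somewhat too small. The edgeR test was checked on simulated counts. Named pathway genes are the 2 with the smallest unadjusted p in carriers against wild-type where no gene of a list was called; genes like Dyrk1a and Rcan1 are the 5 with the highest correlation. Total counts ran from 38236222 to 59923315 per library. Replicate numbers were not used as pairs in the main fit. Of 18 same-number correlations 9 exceeded 0.1, those of number 1 ran from 0.484 to 0.591, and 3 libraries matched best with one of their own number. GENCODE M21 served here for positions and exons, not for the counting, and it held 99.6% of the gene IDs.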

Additional observations from a re-analysis of the deposited data

Results flagged for a closer look

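Dixon's test was applied to the 9 genes in each genotype, 27 groups of 6 livers, and it marked 2, where chance marks about 1 in 20. Rcan1 in Dp16-2xIFNRs library 4 stood at 23.05 CPM, below the next liver at 30.02, with a gap of 0.639 of the group's range. Ppp3cb in Dp16 library 4, the library lowest in the long-gene measure, stood at 29.71 CPM, above the next liver at 21.54, with a gap of 0.739 of the range.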

How the results depend on the processing

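Of 1041 alternative values for the reported member results, 991 kept direction and side of the threshold, 3 passed it (Dyrk1a with the length offset) and 47 changed sign, in 15 of 30 results whose main log2 change was at most 0.321 in size. Counts of called genes are given in the order Dp16, Dp16-2xIFNRs, the carrier groups against each other, all carriers, and sex. They were 72, 127, 7, 137 and 1535 with DESeq2. Without a sex term they were 3, 7 and 6 (Dp16, Dp16-2xIFNRs, carriers), with males only or females only 0, 0 and 0, without Dp16 4 and 5 they were 1, 64 and 54, and with the length offset 24, 50 and 78. Dp16 gave 11 with limma-voom, and Dp16-2xIFNRs gave 23 with the number series as a term. With the groups compared alone Dp16 and Dp16-2xIFNRs gave 1 and 43, with log2(RPKM + 0.1) 11 and 38, and with log2(RPKM + 1) 11 and 27. Leaving out 1 library gave 1 to 9 (9 without Dp16 4), 4 to 48 (48 without Dp16 4, 24 without Dp16 5), 0 to 0, 4 to 47 (46 without Dp16 4, 47 without Dp16 5) and 788 to 1116. Rcan1 relations passing ran from 0 to 3, and were 3 without Dp16 4 and 5. The cause of these changes was not tested.

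Signs turned as follows. Between the carrier groups, limma-voom gave 0.028 for Rcan1 and 0.00416 for Ppp3cb, and an age term 0.00709 for Ppp3cb. Males only gave Ppp3ca -0.198, Ppp3r1 0.0103 and Nfatc3 -0.0677 in Dp16, Nfatc2 -1.01 in Dp16-2xIFNRs, and Rcan1 0.0555 and Rcan2 0.189 between carriers. Females only gave Ppp3cb -0.11 and Nfatc1 0.272 in Dp16, Ppp3cb -0.00591 in Dp16-2xIFNRs and 0.104 between carriers. Without Dp16 4 and 5, Dp16 gave Ppp3cb -0.0403, Ppp3r1 0.00857 and Nfatc1 0.0266, and the carrier groups Ppp3cb 0.0828. With log2(RPKM + 0.1), Ppp3r1 was 0.00376, -0.0545 and -0.0583 (Dp16, Dp16-2xIFNRs, between carriers) and Ppp3cb -0.0141 in Dp16-2xIFNRs; with log2(RPKM + 1) they were 0.00431, -0.0499, -0.0542 and -0.0134. The length offset gave Ppp3ca -0.0107 in Dp16, Nfatc3 0.0727 in Dp16-2xIFNRs, and Dyrk1a 0.102 and Ppp3cb 0.114 between carriers. Leaving out 1 library in Dp16 gave Ppp3ca -0.072 to 0.0644, Ppp3cb -0.0429 to 0.152, Ppp3r1 -0.0841 to 0.00412 and Nfatc1 -0.342 to 0.041. In Dp16-2xIFNRs it gave Rcan2 -0.00973 to 0.41, Ppp3r1 -0.053 to 0.064 and Nfatc2 -0.0345 to 0.667, and between carriers Rcan1 -0.144 to 0.139, Ppp3cb -0.0489 to 0.0859 and Ppp3r1 -0.00932 to 0.109.

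With the replicate number as a block, 5, 21, 0 and 26 genes were called in the 4 genotype comparisons and no member's call changed; 9 of 18 same-number correlations exceeded 0.1. The median of all genes moved past 0.1 only with log2(RPKM + 0.1), to -0.113 between carriers and -0.155 by sex. A CPM minimum of 1 removed Nfatc2, and a fit of carriers with only the groups compared is the main fit and was not run apart.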
